A study of Mus musculus with 19 samples.

Results

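The genes described are the nuclear genes of the mitochondrial respiratory chain and ATP synthase: every gene whose symbol starts with Ndufa, Ndufb, Ndufc, Ndufs, Ndufv, Uqcr, Atp5 or Cox4 to Cox8, together with Sdha, Sdhb, Sdhc, Sdhd, Cyc1 and Cycs, without the Ndufaf assembly factors. The array table held 61 such genes among the 15781 genes with a value. They comprised 29 of the 41 protein-coding complex I genes of the reference annotation that meet this rule, 4 of 4 for complex II, 6 of 9 for complex III, 11 of 18 for complex IV and 11 of 17 for complex V. Cycs, Ndufa4, Cox6b2, Cox7a1, Cox7a2l, Cox8a and Cox8c are not analysed here.

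RNA of myeloid progenitors from mouse bone marrow was hybridised to 19 exon arrays, each labelled CMP, the common myeloid progenitor, or GMP, the granulocyte-monocyte progenitor that it gives rise to. Wild-type mice gave 3 CMP and 4 GMP arrays, and Dnmt3a-/- mice, which lack an enzyme of de novo DNA methylation, gave 3 CMP and 3 GMP arrays; all of these were on the C57Bl/6J background. PR+/- mice gave 2 GMP arrays and mice that were both PR+/- and Dnmt3a-/- gave 4 GMP arrays; PR was read as the PML-RARA fusion gene from the title of the series, and the labels of these 6 arrays give no strain, age or promoter. No label states that the arrays within a group are of different mice, and a p-value therefore reflects the spread among arrays, which may be technical.

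The respiratory chain passes electrons from NADH through complex I, and from succinate through complex II, to ubiquinone, and from there through complex III, cytochrome c and complex IV to oxygen. Complexes I, III and IV move protons across the inner mitochondrial membrane, and complex V, the ATP synthase, uses the return flow to make ATP. Blood stem cells are known for low use of this pathway, and committed progenitors for a higher use.

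A value is the log2 intensity of a gene, averaged over its probe sets, leaving out those shared with another symbol; 1 unit is a doubling. The 61 genes had 354 such probe sets, from 1 to 19 per gene with a median of 5, and 7 genes (Atp5j2, Cox6c, Ndufa12, Ndufa7, Ndufb11, Ndufb3 and Ndufs6) rested on 1 probe set. Many of these genes have near-identical processed copies in the genome, and signal from such copies was not tested. The 61 genes were bright: their median gene stood at the 97.0th percentile of all genes by mean level and 53 of 61 stood above the 75th percentile. Cox7b2, an isoform known from testis, alone had group means under the background level of 3.07 in every group, with single arrays between 1.80 and 3.08.

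The arrays fitted their labels by Dnmt3a and Fcgr3, but not by every marker checked. The Dnmt3a level was 7.07 to 7.65 on the 9 arrays with Dnmt3a and 5.82 to 6.49 on the 10 arrays labelled Dnmt3a-/-. Fcgr3, an Fc receptor gene that marks GMP, was 8.60 to 10.12 on the GMP arrays and 5.72 to 7.80 on the CMP arrays, and the B-cell gene Pax5 stayed between 4.50 and 6.82. Kit, checked for CMP, was 9.73 to 10.09 on the CMP arrays and 8.86 to 9.56 on the GMP arrays. Gata2, also checked for CMP, was 8.51 to 9.03 in wild-type CMP and 6.87 to 7.96 in wild-type GMP. It was 9.30 to 9.78 in PR+/- GMP and 9.24 to 9.94 in PR+/- Dnmt3a-/- GMP. The granule gene Ctsg reached down to 6.59 in PR+/- Dnmt3a-/- GMP, under all CMP arrays. Prtn3 and Mpo of the PR+/- groups overlapped wild-type CMP. On 5 arrays (wild-type CMP replicate 1, wild-type GMP replicates 1 and 2, and PR+/- Dnmt3a-/- GMP replicates 1 and 2), the mean level of 17 immediate early and heat shock genes was 7.67 to 8.92, against 6.07 to 7.19 on the other 14. The mean level of the Y-linked genes Eif2s3y and Kdm5d was low, 2.54 to 3.25, on 9 arrays, which included all 6 Dnmt3a-/- arrays without PR and 1 array each of wild-type CMP and wild-type GMP. In bulk RNA, fewer cells of a type and less RNA per cell cannot be told apart.

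Complex I, the NADH dehydrogenase, was read first, by its mean level over the 29 measured genes. In CMP this mean was 8.84, 9.20 and 9.02 on the wild-type arrays and 9.23, 9.28 and 9.30 on the Dnmt3a-/- arrays. In GMP it was 8.99, 9.36, 9.36 and 9.09 on the wild-type arrays and 9.59, 9.49 and 9.75 on the Dnmt3a-/- arrays. The Dnmt3a-/- arrays therefore lay above all wild-type arrays of the same cell type, without overlap. The PR+/- arrays were at 9.51 and 9.52, within the range of the Dnmt3a-/- GMP arrays, and the PR+/- Dnmt3a-/- arrays fell into a low pair at 8.78 and 8.77 and a high pair at 9.49 and 9.54.

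**Figure D1:**
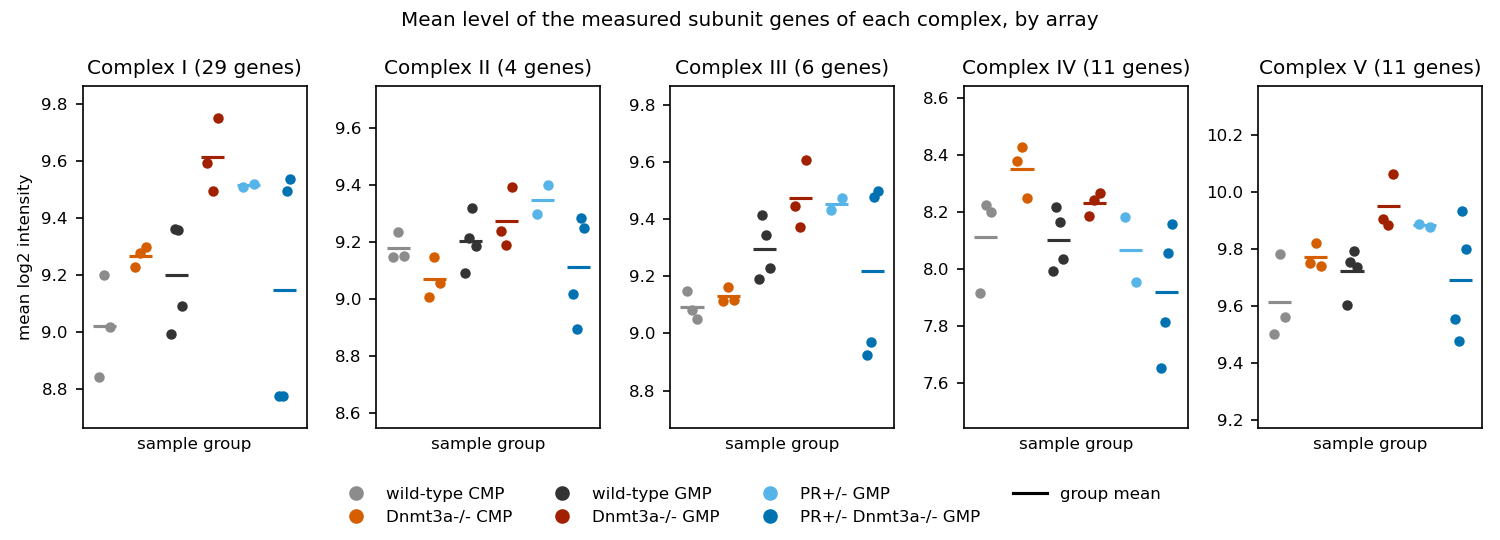
Mean log2 intensity (vertical axis) of the measured genes of complexes I to V, 1 panel per complex and 1 point per array, in 6 sample groups; lines mark group means and each panel spans the same range of log2 units. The Dnmt3a-/- arrays of complex I lay above the wild-type arrays of the same cell type, and 2 of the 4 PR+/- Dnmt3a-/- arrays lay low, at 8.78 and 8.77.

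The other complexes separated the genotypes less. For complex II, succinate dehydrogenase, the wild-type CMP arrays were at 9.15 to 9.24 and the Dnmt3a-/- CMP arrays at 9.01 to 9.15, and the arrays overlapped in GMP as well. Complex III was at 9.05 to 9.15 in wild-type and 9.11 to 9.16 in Dnmt3a-/- CMP, and at 9.19 to 9.41 and 9.37 to 9.61 in GMP. Complex IV was at 7.92 to 8.22 in wild-type and 8.25 to 8.43 in Dnmt3a-/- CMP, without overlap, but its GMP ranges of 7.99 to 8.22 and 8.19 to 8.27 met. Complex V was at 9.60 to 9.79 in wild-type and 9.89 to 10.06 in Dnmt3a-/- GMP, without overlap, while its CMP ranges overlapped. Levels of different complexes are not compared, since each probe set has its own brightness.

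The first comparison asked which of these genes differ without Dnmt3a, with the change averaged over CMP and GMP. The titles of these arrays carry a number, and all wild-type numbers lie below all Dnmt3a-/- numbers. The labels do not say what the numbers stand for. Whatever goes with them, such as separate handling, cannot be told apart from genotype here or within CMP or GMP alone. Of the 61 genes, 11 rose and 1 fell at an adjusted p under 0.05 (limma, 13 arrays, Benjamini-Hochberg over all genes). Over all 15781 genes 5.75% passed, 3.54% higher and 2.21% lower. The median change of the 61 genes was 0.28 and that of all genes -0.06, and 46 of the 61 changes were above 0 where 39.6% of all genes were. The genes that rose were Ndufa1, Ndufa6, Ndufa7, Ndufa13, Ndufb2, Ndufs6 and Ndufv3 of complex I, Cox6c and Cox7a2 of complex IV, and Atp5c1 and Atp5mpl of complex V; Cox4i2 of complex IV fell. At an unadjusted p under 0.05, 32 genes were higher and 1 was lower, where 10.4% and 13.5% of all genes were.

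In complex I, 7 of 29 genes rose and none fell, with a median change of 0.32. Ndufa1, a small membrane subunit encoded on the X chromosome that complex I needs for its assembly, had the smallest p of the 61 genes. Its level was 8.69, 8.75 and 8.21 in wild-type CMP and 9.52, 9.36 and 9.47 in Dnmt3a-/- CMP, and 9.01, 9.57, 9.17 and 8.68 in wild-type GMP and 10.21, 9.93 and 9.91 in Dnmt3a-/- GMP. The lowest Dnmt3a-/- array was thus above the highest wild-type array in each cell type, and the averaged rise was 0.91 ± 0.14 (SE, 1.87-fold, limma adjusted p = 0.0037). Ndufb2, another accessory subunit of the membrane arm, was at 8.31, 9.47 and 9.11 in wild-type CMP and 9.57, 9.86 and 9.83 without Dnmt3a, and at 9.12, 9.70, 9.66 and 9.22 in wild-type GMP and 10.39, 10.24 and 10.52 without Dnmt3a. Again the arrays did not overlap in either cell type, with a rise of 0.87 ± 0.17 (1.83-fold, adjusted p = 0.0131). Ndufa6, which lies where the peripheral arm meets the membrane arm, was at 8.71, 9.47 and 9.33 against 9.63, 9.80 and 9.96 in CMP and at 9.31, 9.12, 9.57 and 8.90 against 10.12, 9.89 and 10.06 in GMP. It rose by 0.71 ± 0.14 (1.64-fold, adjusted p = 0.0137), and here too no wild-type array reached a Dnmt3a-/- array.

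The other complex I genes that rose were Ndufa7 (0.78 ± 0.18, adjusted p = 0.0267), Ndufv3 (0.51 ± 0.13, adjusted p = 0.0387), Ndufs6 (0.50 ± 0.12, adjusted p = 0.0285) and Ndufa13 (0.41 ± 0.10, adjusted p = 0.0382). Ndufs6 is a zinc-binding subunit of the peripheral arm, Ndufv3 is a small subunit of its NADH-oxidising module, and Ndufa13 is also known as Grim19. In each of the 4, every Dnmt3a-/- array lay above every wild-type array of the same cell type. The rises of Ndufa1, Ndufa6, Ndufa7, Ndufb2, Ndufs6 and Ndufa13 were seen in each of their probe sets, and that of Ndufv3 in 5 of its 6. All 7 genes encode accessory subunits. Of the subunits that form the catalytic core of complex I, 5 were measured (Ndufs1, Ndufs7, Ndufs8, Ndufv1 and Ndufv2), and none of the 5 passed. Their median change was 0.02, against 0.34 for the 24 accessory subunits, a grouping made after the values were seen and given without a test. The ranges overlapped, from -0.16 to 0.35 for the core and from -0.17 to 0.91 for the accessory subunits. Ndufv2 was higher in all 7 of its probe sets and Ndufs7 in 9 of 10, while Ndufs8 was higher in 0 of 7. Ndufs1, which holds iron-sulfur clusters of the peripheral arm, had a difference of -0.02 ± 0.08 and Ndufv1, which binds NADH and flavin, of 0.02 ± 0.11. The core genes had a median of 10 probe sets and the accessory genes of 4, and the part of probe set number in this difference was not tested. A like split of complex III gave medians of 0.12 for Uqcrfs1 and Cyc1 and 0.13 for the other 4 genes. In complex V it gave 0.17 for 5 subunits of the head and rotating stalk and 0.15 for the other 6 genes. In complex V, 1 gene passed on each side of the split.

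In complex IV, cytochrome c oxidase, Cox7a2 and Cox6c rose and Cox4i2 fell among 11 genes, with a median change of 0.22. Cox7a2, the widely used isoform of a small nuclear subunit, was at 8.27, 8.17 and 7.70 in wild-type CMP and 9.01, 8.63 and 8.93 in Dnmt3a-/- CMP, and at 8.59, 9.34, 8.46 and 8.27 in wild-type GMP and 10.10, 9.30 and 9.57 in Dnmt3a-/- GMP. The CMP arrays did not overlap, while wild-type GMP replicate 2, at 9.34, was above the lowest Dnmt3a-/- GMP array, at 9.30. The averaged rise was 0.90 ± 0.19 (1.87-fold, limma adjusted p = 0.0158). Cox6c, a subunit with 1 probe set here, was at 11.05, 11.11 and 10.95 against 11.47, 11.77 and 11.66 in CMP and at 11.09, 11.35, 11.06 and 11.05 against 11.79, 11.37 and 11.56 in GMP. The arrays did not overlap in either cell type, and Cox6c rose by 0.52 ± 0.10 (1.43-fold, adjusted p = 0.0114). Cox4i2, the isoform of subunit 4 known for its induction under low oxygen, was at 4.68, 5.10 and 5.17 in wild-type CMP and 4.24, 4.23 and 4.35 in Dnmt3a-/- CMP, and at 4.85, 5.24, 5.19 and 5.56 in wild-type GMP and 4.06, 4.59 and 4.93 in Dnmt3a-/- GMP. The CMP arrays did not overlap, and 1 Dnmt3a-/- GMP array was above the lowest wild-type one. Cox4i2 fell by 0.70 on the log2 scale (SE 0.15, adjusted p = 0.0221), with all 5 of its probe sets lower. Its widely used partner isoform Cox4i1 had a difference of 0.37 ± 0.10 (adjusted p = 0.0551) and did not pass, although its Dnmt3a-/- arrays lay above the wild-type arrays in both cell types. Cox6b1 had a difference of 0.35 ± 0.11 (adjusted p = 0.079) and Cox5a of -0.00 ± 0.12.

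In complex V, Atp5c1 and Atp5mpl rose among 11 genes, with a median change of 0.16. Atp5c1, the gamma subunit of the rotating stalk, was at 10.01, 10.31 and 10.11 in wild-type CMP and 10.40, 10.59 and 10.48 in Dnmt3a-/- CMP, and at 10.17, 10.13, 10.26 and 10.34 in wild-type GMP and 10.58, 10.53 and 10.78 in Dnmt3a-/- GMP. The arrays did not overlap in either cell type, and the rise was 0.38 ± 0.09 (1.30-fold, limma adjusted p = 0.0298). Atp5mpl, a small membrane proteolipid of the ATP synthase, rose by 0.42 ± 0.10 (adjusted p = 0.0333), also without overlap. The catalytic head genes Atp5a1 and Atp5b had changes of 0.11 ± 0.09 and 0.17 ± 0.08 and did not pass. No gene of complexes II and III passed. Sdha, Sdhb, Sdhc and Sdhd had differences of -0.13, -0.06, -0.02 and 0.14, with a median of -0.04, and Sdhd varied most among wild-type GMP arrays, from 8.07 to 9.59. In complex III, the iron-sulfur subunit Uqcrfs1 had a difference of 0.30 ± 0.10 (adjusted p = 0.0929), Cyc1, the cytochrome c1 gene, of -0.06 ± 0.14, and the core subunits Uqcrc1 and Uqcrc2 of -0.17 ± 0.18 and -0.03 ± 0.09.

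**Figure D2:**
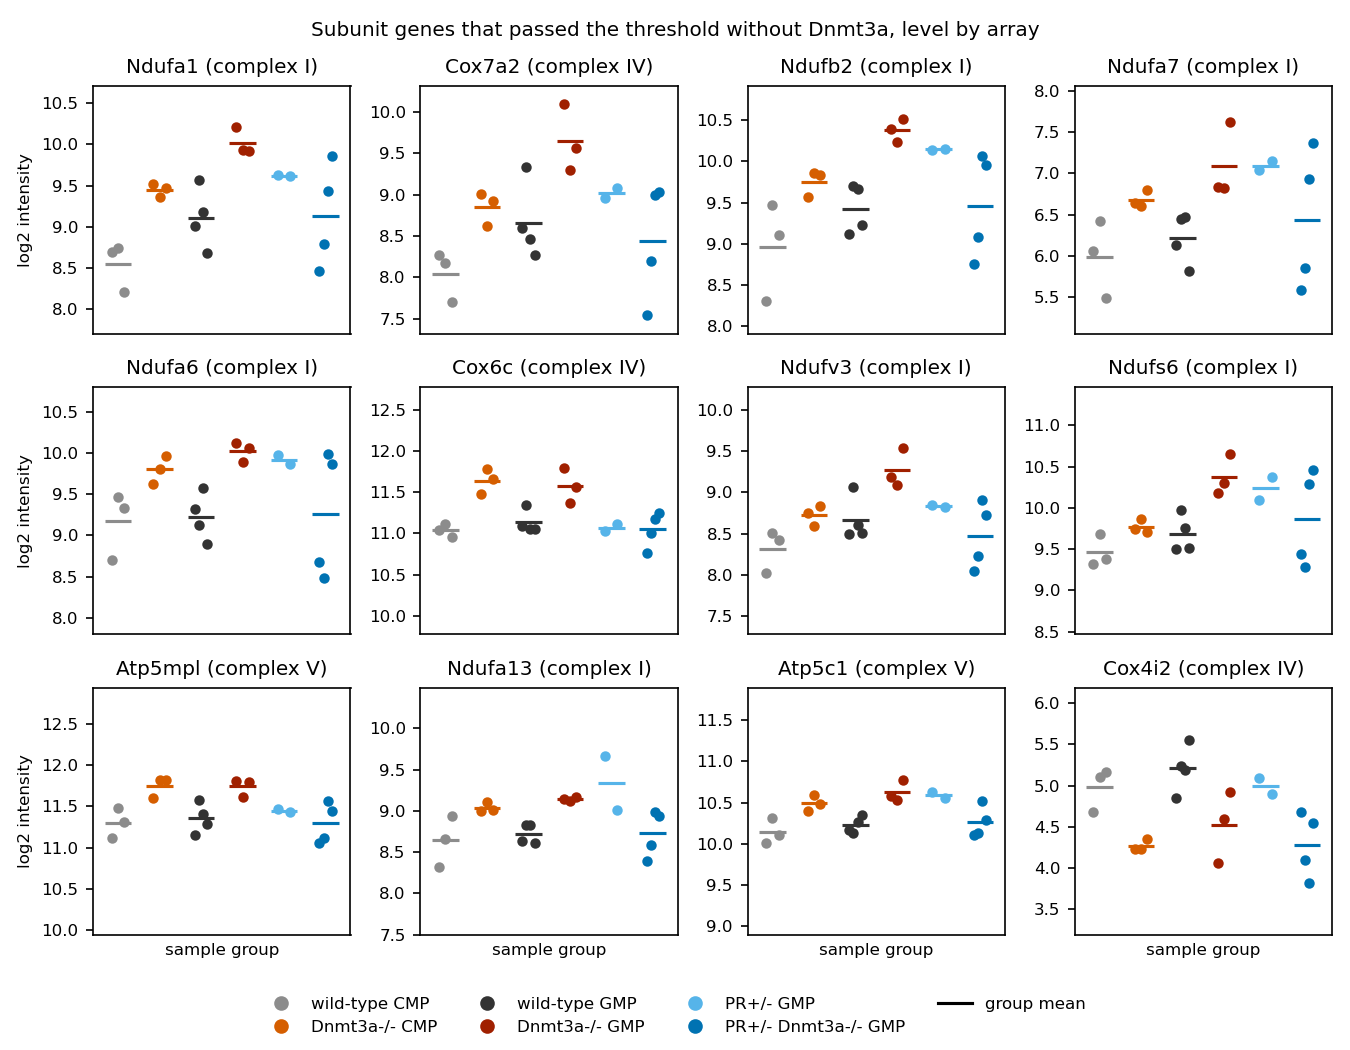
Log2 intensity (vertical axis) of the 12 genes that passed an adjusted p of 0.05 for Dnmt3a-/- minus wild type averaged over CMP and GMP, 1 panel per gene and 1 point per array, in 6 sample groups; lines mark group means and each panel spans the same range of log2 units. Ndufa1, at the top left, rose by 0.91, Cox4i2, at the bottom right, fell by 0.70, and the PR+/- Dnmt3a-/- arrays of most panels spread into a low and a high pair.

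Over both cell types at once, 13 of the 61 genes (21.3%) had every Dnmt3a-/- array above every wild-type array in CMP and again in GMP, where 2.76% of all genes did. They were 10 of the 11 that rose, all but Cox7a2, together with Atp5e, Cox4i1 and Ndufa2. None of the 61 was lower without overlap in both cell types, where 2.22% of all genes were. By sign alone, 40 of the 61 changes were above 0 in both cell types and 9 below 0 in both, against 25% and 41.0% of all genes.

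The Y-linked signal was low on all 6 of these Dnmt3a-/- arrays, so it is largely confounded with genotype. A fit with the signal as a covariate was made, but its slope rests mainly on the 1 low wild-type array per cell type. It therefore cannot settle the part of this signal. Then 3 of the 12 genes passed, Ndufa1 (1.33, limma adjusted p = 0.0043), Ndufa7 (1.30, adjusted p = 0.0219) and Cox7a2 (1.30, adjusted p = 0.0430), and the median change of the 61 genes was 0.29. Under this covariate 139 of all genes passed, against 907 without it. Genes that no longer passed had changes of similar size, for example Ndufb2 with 0.89, Ndufa6 with 0.78, Cox6c with 0.61 and Cox4i2 with -0.97 (adjusted p from 0.0793 to 0.161). Against the 1 wild-type array per cell type with low Y-linked signal (CMP replicate 3 and GMP replicate 4), which allows no test, 45 of the 61 genes were higher on average in Dnmt3a-/- CMP and 50 of 61 in Dnmt3a-/- GMP, with medians of 0.17 and 0.38 where all genes had -0.06 and -0.06. Ndufa1 lay above that array by a mean of 1.24 in CMP and 1.34 in GMP, Cox6c by 0.68 and 0.52, and Atp5c1 by 0.38 and 0.29; since 10 of the 11 genes that rose had no overlap with any wild-type array, their direction here was already given. Without the 5 arrays of high immediate early level, 12 genes passed (1261 of all genes, against 907), 9 of them shared, and the median change was 0.21. With adjacent title numbers of the Dnmt3a-/- arrays as pairs, 10 of the 12 genes passed (591 of all genes, against 907), and Ndufv3 was 1 of those lost. Leaving out 1 array moved the count to between 5 and 15, and that of all genes to between 371 and 1031. The count was 6 without wild-type CMP replicate 3 (486 of all genes). It was 6, 5 and 7 without Dnmt3a-/- CMP replicates 1, 2 and 3 (439, 471 and 452 of all genes). Without Dnmt3a-/- GMP replicate 1 it was 7 (371 of all genes).

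Markers of other cells moved in the same comparison. All 10 measured megakaryocyte markers rose (list mean 6.29 to 6.44 in wild-type and 7.68 to 8.04 in Dnmt3a-/- CMP, 5.09 to 5.54 and 6.04 to 6.77 in GMP). So did 9 of 13 secondary granule genes and 8 of 12 dendritic cell genes, while 4 of 11 monocyte genes fell and 1 rose. Of 9 basophil and mast cell genes 4 rose, with list means of 5.12 to 6.06 in wild-type and 5.82 to 6.68 in Dnmt3a-/- CMP and of 6.69 to 7.11 and 7.90 to 8.43 in GMP. Of 13 stem cell genes 4 rose (Hlf, Gata2, Tek and Mecom) and Cd34 fell, with list means of 6.62 to 6.97 and 7.10 to 7.22 in CMP and of 5.51 to 5.90 and 5.70 to 5.94 in GMP. Of 24 cell cycle genes none rose and 2 fell, with a median change of -0.17. Of all genes, 3.54% rose and 2.21% fell. The part of these cells in the respiratory chain result was not tested.

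For reference, 100 bases before the start of 5 of the genes that rose are given from RefSeq (GRCm38.p6), 5′ to 3′ on the strand of the gene, to show how such upstream sequences read; capitals mark a motif of nuclear respiratory factor 1 (NRF1), a known regulator of respiratory chain genes: GCGC, then any base, then TGCGC, on either strand. The windows are chrX:37191239-37191338 (minus strand) for Ndufa1, chr6:39592465-39592564 (plus) for Ndufb2, chr9:79759854-79759953 (minus) for Cox7a2, chr13:73328483-73328582 (minus) for Ndufs6 and chr2:10080433-10080532 (minus) for Atp5c1. Atp5c1 has 2 listed starts, and the start whose window holds the motif was taken.
Ndufa1: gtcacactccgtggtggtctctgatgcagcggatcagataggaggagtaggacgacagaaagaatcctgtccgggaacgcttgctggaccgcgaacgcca
Ndufb2: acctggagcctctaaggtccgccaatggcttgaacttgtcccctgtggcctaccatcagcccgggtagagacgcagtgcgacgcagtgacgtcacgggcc
Cox7a2: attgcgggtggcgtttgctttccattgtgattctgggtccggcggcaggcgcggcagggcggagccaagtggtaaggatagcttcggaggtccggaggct
Ndufs6: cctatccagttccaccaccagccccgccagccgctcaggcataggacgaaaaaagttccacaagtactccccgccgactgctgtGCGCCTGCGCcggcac
Atp5c1: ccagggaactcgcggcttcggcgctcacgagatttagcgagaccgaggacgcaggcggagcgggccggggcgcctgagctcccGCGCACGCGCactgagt

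Promoters of 300 bases, 250 before and 50 after the start, were matched for 48 of the 61 genes. The NRF1 motif stood in 12 of the 48 (25%), among them Ndufs6 and Atp5c1 at 16 and 17 bases before the start, and in 5.19% of the 27025 genes with a promoter. The YY1 motif AAGATGGC, on either strand, stood in 9 of 48 (18.8%) against 3.19%, for example in Ndufa3 and Ndufs4. The ERR motif AAGGTCA stood in 4 of 48 (8.33%) against 5.38%, the TATA box letters TATAAA in 6 (12.5%) against 15.7%, and the ETS motif CCGGAAGT in 0 against 4.31%, all on either strand, with each gene counted once. Of the 9 matched genes that rose, 3 held the NRF1 motif (Atp5c1, Ndufa6 and Ndufs6), and of the other 39 matched genes 9 did. The median GC content was 57.8% for the 48 genes and 52.8% for all. A match describes letters and shows no binding.

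Within CMP alone the question was the same, with fewer arrays. None of the 61 genes passed at an adjusted p under 0.05 (limma), where 1.28% of all genes did, 0.919% higher and 0.361% lower. At an unadjusted p under 0.05, 13 were higher and 2 lower, where 6.47% and 7.23% of all genes were. The 3 of smallest p were Ndufa1 (0.90 ± 0.21, adjusted p = 0.0558), Cox6c (0.60 ± 0.15, adjusted p = 0.0695) and Cox6a2 (1.08 ± 0.31, adjusted p = 0.123). The median of the 61 changes was 0.20, and 45 were above 0, where 42.7% of all genes were. The median was 0.12 without wild-type CMP replicate 1, an array of high immediate early level. In 22 genes the Dnmt3a-/- CMP arrays lay above all wild-type CMP arrays and in 6 below, where 10.1% and 13% of all genes did.

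Within GMP, 1 of the 61 genes passed: Ndufa1 rose by 0.91 ± 0.20 (1.88-fold, limma adjusted p = 0.0386), where 1.33% of all genes passed, 0.9% higher and 0.431% lower. The call on Ndufa1 was lost without any 1 of the 3 Dnmt3a-/- GMP arrays and without wild-type GMP replicate 1, 3 or 4. Without wild-type GMP replicate 2, 4 genes passed (262 of all genes, against 210). Next in p came Ndufs6 with 0.69 ± 0.16 (adjusted p = 0.0553) and Ndufa6 with 0.80 ± 0.20 (adjusted p = 0.0676), which did not pass. At an unadjusted p under 0.05, 30 genes were higher, 19 of them of complex I, and Cox4i2 and Cox8b were lower, where 8.52% and 10.4% of all genes were. The median change was 0.32, with 47 above 0 where 41.3% of all genes were, and 23 genes were higher and 0 lower without overlap, where 7.88% and 8.73% of all genes were.

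The difference between the GMP and the CMP effect was tested itself. No gene of all 15781 passed (limma), and none of the 61 had an unadjusted p under 0.05, where 3.61% of all genes were higher and 3.26% lower at that level. The estimate was above 0, a larger change in GMP, in 48 of 61 genes, where 47.4% of all genes were, with a median of 0.11. That median depended on single arrays: it was 0.029 without wild-type CMP replicate 2, 0.047 without wild-type GMP replicate 1 and 0.18 without wild-type CMP replicate 1. The smallest p was that of Cox8b, a heart and muscle isoform, at -0.84 ± 0.43 (adjusted p = 0.787), followed by Atp5j at 0.34 ± 0.20 (adjusted p = 0.822) and Cox6a2 at -0.69 ± 0.42 (adjusted p = 0.848).

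**Figure D3:**
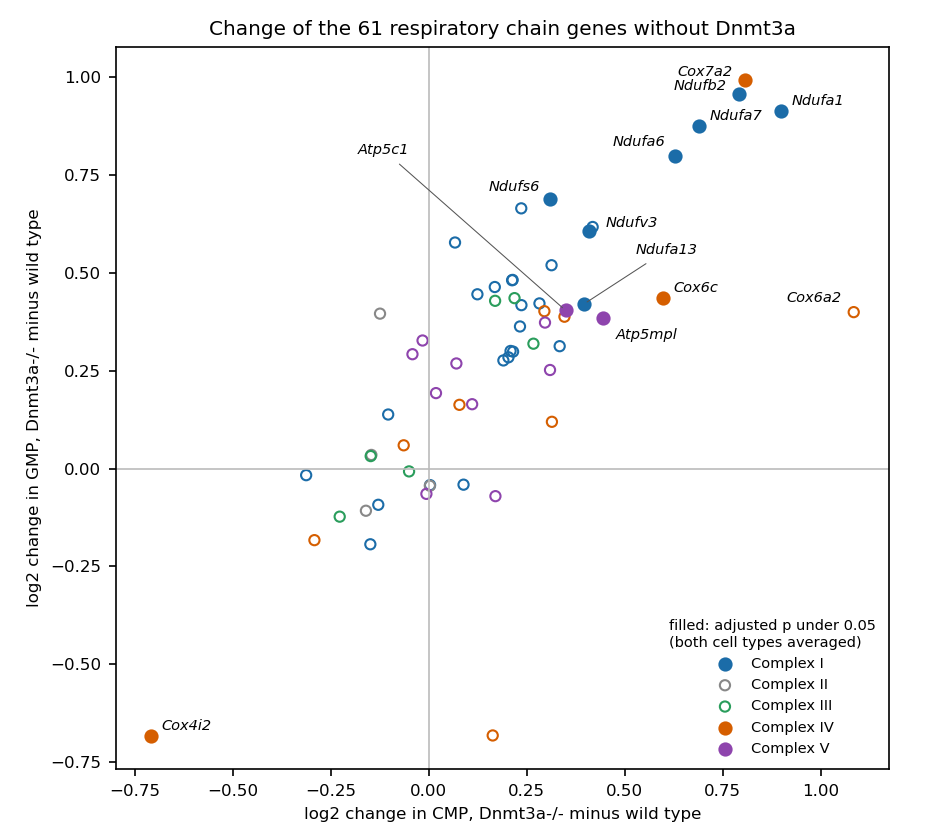
Log2 change of the 61 genes, Dnmt3a-/- minus wild type, in CMP (horizontal axis) and in GMP (vertical axis), 1 point per gene, coloured by complex; filled points passed an adjusted p of 0.05 when both cell types were averaged. Most points lie above 0 on both axes (40 of 61), Cox4i2 lies low on both at -0.71 and -0.68, and Cox6a2 lies at 1.08 in CMP and 0.40 in GMP.

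The step from CMP to GMP was then compared. In wild-type cells 1 of the 61 genes passed (limma), and 4.3% of all genes did, 1.87% higher and 2.43% lower in GMP. Cox6a2, the isoform of subunit 6a known from heart and skeletal muscle, was at 8.06, 7.31 and 7.84 in wild-type CMP and at 5.59, 6.29, 5.55 and 5.71 in wild-type GMP. The groups were far apart, and Cox6a2 was lower in GMP by 3.88-fold (log2 change -1.96 ± 0.29, adjusted p = 0.0020). In Dnmt3a-/- cells it was at 9.35, 8.87 and 8.25 in CMP and at 6.22, 5.71 and 6.62 in GMP, again without overlap and lower by 6.24-fold (-2.64 ± 0.31, adjusted p = 0.000169). All 4 of its probe sets were lower in GMP in both genotypes. The call in wild type was lost when the brighter part of its probe sets alone was used. In the PR+/- groups, which hold GMP, Cox6a2 stayed at 5.64 and 5.67 and at 5.40 to 6.25.

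The partner isoform Cox6a1, which most tissues use, was nearly level: 11.94 to 12.10 in wild-type CMP, 11.95 to 12.19 in wild-type GMP, 12.07 to 12.15 in Dnmt3a-/- CMP and 12.19 to 12.30 in Dnmt3a-/- GMP. Its change from CMP to GMP was 0.03 ± 0.11 in wild type and 0.11 ± 0.12 in Dnmt3a-/- cells. Cox4i1 had differences of -0.00 ± 0.14 and 0.04 ± 0.15 and Cox4i2 differences of 0.23 ± 0.21 and 0.25 ± 0.22, and neither passed. Cox8b was dim, at 2.81 to 5.14 over the 19 arrays, with a change of 0.18 ± 0.30 in wild type and -0.67 ± 0.32 in Dnmt3a-/- cells. Erythroid and megakaryocyte markers moved with Cox6a2: 5 of 10 measured erythroid genes and 6 of 10 megakaryocyte genes were lower in wild-type GMP and none was higher, with list means of 6.32 to 7.54 against 5.18 to 5.39 and of 6.29 to 6.44 against 5.09 to 5.54. So were 8 of 13 stem cell genes and 8 of 12 dendritic cell genes, Flt3 among both. The dendritic list mean was 6.04 to 6.52 in wild-type CMP and 7.48 to 8.09 in Dnmt3a-/- CMP. In GMP it was 4.66 to 5.17 in wild type and 5.85 to 6.10 in Dnmt3a-/- cells. In Dnmt3a-/- CMP the list mean was 7.68 to 8.04 for megakaryocyte, 7.10 to 7.22 for stem cell and 6.80 to 6.88 for erythroid genes. The part of these cells in the Cox6a2 difference was not tested.

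**Figure D4:**
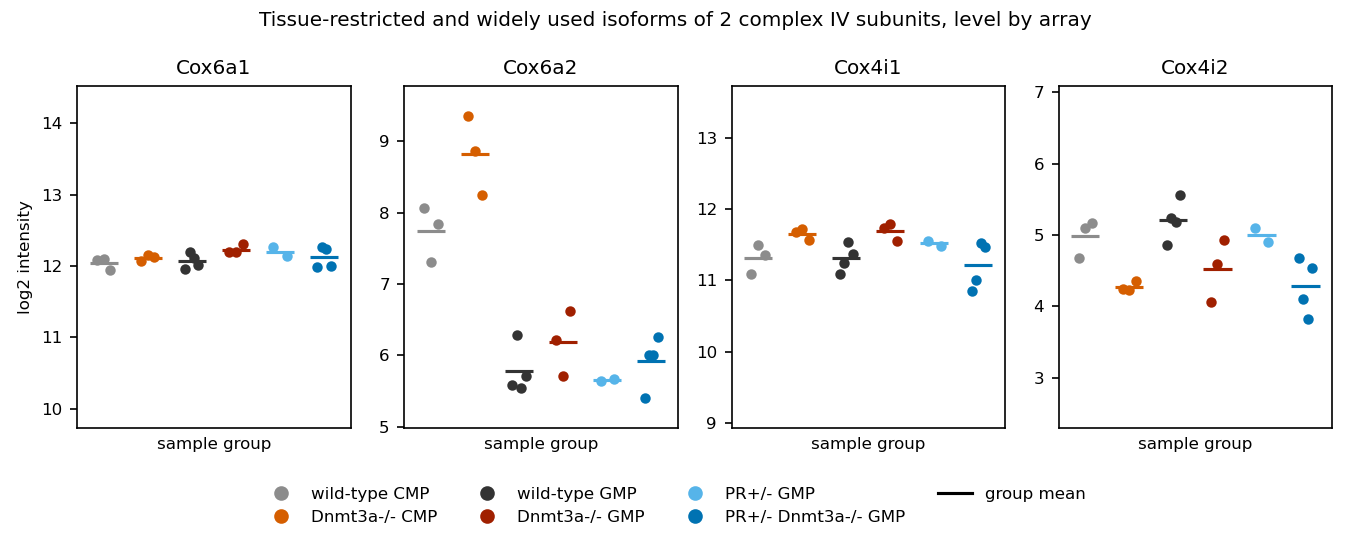
Log2 intensity (vertical axis) of the widely used isoforms Cox6a1 and Cox4i1 and the tissue-restricted isoforms Cox6a2 and Cox4i2 of complex IV, 1 point per array, in 6 sample groups; lines mark group means and each panel spans the same range of log2 units. Cox6a2 lies at 7.31 to 9.35 on the CMP arrays and at 5.40 to 6.62 on the GMP arrays, while Cox6a1 stays between 11.94 and 12.30.

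The remaining genes shifted by small amounts from CMP to GMP. In wild type, 52 of 61 changes were above 0, where 55.8% of all genes were, with a median of 0.15, which was 0.074 without wild-type CMP replicate 1, 0.099 without wild-type GMP replicate 2 and 0.091 without wild-type GMP replicate 3. At an unadjusted p under 0.05, 7 genes were higher, 5 of them of complex I, where 8.18% of all genes were, and 5 were higher and 1 lower without overlap, where 7.2% and 6.65% of all genes were. The next in p were Atp5o, the stalk subunit that confers oligomycin sensitivity (0.50 ± 0.17, adjusted p = 0.148), and Ndufa1 (0.56 ± 0.20, adjusted p = 0.151). In Dnmt3a-/- cells, 56 of 61 changes were above 0, where 48.7% of all genes were, with a median of 0.25, and 39 genes were higher in GMP without overlap, where 17.3% of all genes were. Of these, Ndufs6 rose in GMP, by 0.60 ± 0.17 (limma adjusted p = 0.0399), with arrays at 9.74, 9.87 and 9.70 in CMP and 10.18, 10.29 and 10.65 in GMP, where 10.1% of all genes passed, 5.5% higher and 4.58% lower. Cox7a2 (0.80 ± 0.27, adjusted p = 0.0876) and Ndufv3 (0.54 ± 0.19, adjusted p = 0.0925) came next. The call on Ndufs6 rested on single arrays: 1 gene passed without any of the 3 Dnmt3a-/- CMP arrays or without GMP replicate 2 or 3, and 3 passed without GMP replicate 1. In these fits 968 to 1176 of all genes passed, against 1590 with every array. With adjacent title numbers as pairs 4 genes passed (2060 of all genes), Ndufs6, Cox6a2 and Cox7a2 among them.

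In PR+/- GMP the comparison with and without Dnmt3a gave no call among all genes (limma, 6 arrays; at an unadjusted p under 0.05, 3.08% of all genes were higher and 4.88% lower, and 0 and 3 of the 61). The changes were below 0 in 54 of 61 genes, where 44.4% of all genes were above 0. Their median of -0.28 came with a split among the PR+/- Dnmt3a-/- arrays. The mean over all 61 genes was 9.29 and 9.32 on the PR+/- arrays, 8.74 and 8.76 on PR+/- Dnmt3a-/- replicates 1 and 2, and 9.30 and 9.31 on replicates 3 and 4. The low pair carried the high immediate early level, and without it the median change was 0.00. In wild-type GMP the arrays of high immediate early level did not lie apart in this way: replicates 1 and 2 were at 8.95 and 9.22, and replicates 3 and 4 at 9.22 and 9.04. In wild-type CMP the array of high immediate early level, replicate 1, was the lowest at 8.84, with replicates 2 and 3 at 9.12 and 8.98. The 3 genes of smallest p were Cox4i2 (-0.71 ± 0.26, adjusted p = 0.62), Ndufa13 (-0.61 ± 0.25, adjusted p = 0.621) and Sdhb (-0.57 ± 0.25, adjusted p = 0.624). Cox4i2 was at 5.10 and 4.90 in PR+/- GMP and at 4.68, 4.10, 3.82 and 4.54 without Dnmt3a, without overlap and in the direction of its change in the cells without PR. With 2 against 4 arrays, 13 of the 61 genes and 12.3% of all genes were lower without overlap. Sdhb was at 9.42 and 9.37 and at 8.36, 8.68, 9.12 and 9.12.

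Genes that rose without Dnmt3a in the cells without PR showed the same split. Ndufa1 was at 9.63 and 9.62 in PR+/- GMP and at 8.46, 8.79, 9.43 and 9.86 in PR+/- Dnmt3a-/- GMP. Ndufa6 was at 9.97 and 9.86 and at 8.68, 8.48, 9.99 and 9.87, and Ndufb2 at 10.14 and 10.15 and at 8.75, 9.08, 10.06 and 9.96. In each of these the low values were those of replicates 1 and 2, and the values of replicates 3 and 4 lay near or within those of PR+/- GMP. Cox6c, at 11.03 and 11.11 against 10.76, 11.01, 11.18 and 11.25, had overlapping groups.

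**Figure D5:**
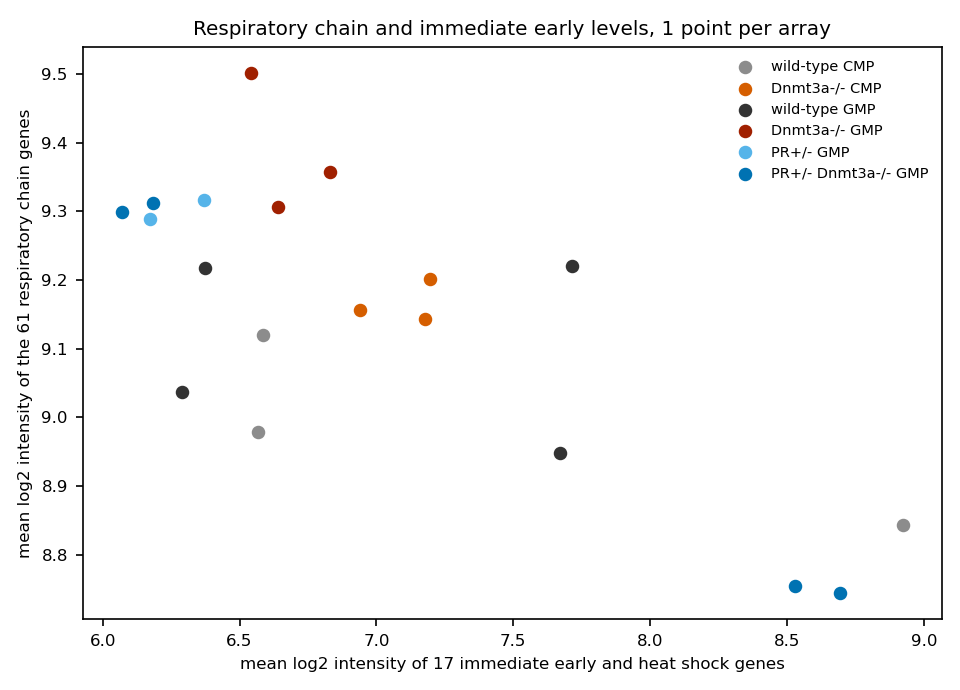
Mean log2 intensity of the 61 respiratory chain genes (vertical axis) against that of 17 immediate early and heat shock genes (horizontal axis), 1 point per array, coloured by sample group. The PR+/- Dnmt3a-/- arrays lie as a pair at 8.74 and 8.76 with high immediate early level and a pair at 9.30 and 9.31 with low level.

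The PR+/- groups were last set against their counterparts without PR; their arrays carry another style of title and no strain, and the labels do not say whether they were processed together with the others. For PR+/- minus wild-type GMP none of the 61 genes passed (limma, 13 GMP arrays), where 2.19% of all genes were higher and 0.881% lower, and the median change was 0.17. The smallest p were those of Atp5j (0.59 ± 0.19, adjusted p = 0.116), a stalk subunit of complex V, Ndufa13 (0.61 ± 0.21, adjusted p = 0.132) and Cox8b (-1.12 ± 0.43, adjusted p = 0.192). For PR+/- Dnmt3a-/- minus Dnmt3a-/- GMP none passed either, where 0.678% were higher and 0.558% lower. At an unadjusted p under 0.05, 0 of the 61 genes were higher and 23 lower, where 7.98% and 7.11% of all genes were, with a median of -0.37, which was -0.084 without the arrays of high immediate early level. The 3 of smallest p were Ndufv3 (-0.80 ± 0.22, adjusted p = 0.107), Cox7a2 (-1.21 ± 0.35, adjusted p = 0.127) and Cox6c (-0.52 ± 0.15, adjusted p = 0.135).

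The Dnmt3a-/- effect in PR+/- GMP minus that in GMP without PR was tested as a difference. None of the 61 genes passed (limma), where 0 of all genes were higher and 0.0317% lower. At an unadjusted p under 0.05, 26 genes were lower and 1 higher, where 8.44% and 5.56% of all genes were, and the median difference was -0.56, or -0.25 without the arrays of high immediate early level. Ndufb2 (-1.64 ± 0.43, adjusted p = 0.189), Ndufa13 (-1.03 ± 0.27, adjusted p = 0.194) and Atp5c1 (-0.74 ± 0.20, adjusted p = 0.199) had the smallest p.

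Other mitochondrial and metabolic gene lists were read from the same fits. For the averaged Dnmt3a-/- change the counts are to be read against the 3.54% of all genes that passed higher and the 2.21% lower. The assembly factors of complex I (12 measured), complex II (2), complex III (6) and complex V (3) held no gene that passed. Of 17 assembly factors of complex IV, Cox16 rose (0.47 ± 0.13, limma adjusted p = 0.0476) and Taco1, a translational activator of Cox1, fell (-0.42 ± 0.10, adjusted p = 0.0361). None of 17 citric acid cycle genes passed (median -0.06), nor any of 52 mitochondrial ribosomal genes (0.05), 16 regulators of mitochondrial biogenesis (-0.08), 9 import genes (0.11), 9 antioxidant genes (0.11) or 11 cytosolic ribosomal genes (0.20), where the median of all genes was -0.06. Among 16 glycolysis genes, the glucose transporter gene Slc2a3 rose by 0.77 ± 0.13 (adjusted p = 0.0048), while Ldhb fell (-1.05 ± 0.24, adjusted p = 0.0262) and Slc2a1 fell (-0.36 ± 0.09, adjusted p = 0.0418). Of 9 genes that feed electrons into the chain by other routes, the choline dehydrogenase gene Chdh fell (-0.94 ± 0.16, limma adjusted p = 0.0063).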

How the data were processed

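The deposited table gives, for each of 19 exon arrays, an intensity per probe set on a linear scale that the authors had normalised. The submitters' processing notes name RMA, Partek and mm9, with no versions, and whether 1 normalisation covered every array is not stated in the labels. Array medians lay between 53.0 and 56.8, and the deposited intensity was not scaled further. Of 194293 probe sets, 179496 carry 1 symbol; 1328 with several and 13469 with none were left out. Intensities were taken to log2 and averaged per gene. Symbols were updated through RefSeq's gene table of GRCm38.p6 (2039 updated, 37 kept), so that 2010107E04Rik is given as Atp5mpl, 1110020P15Rik as Uqcr10 and Atp5f1 as Atp5pb. Dim genes were kept, and the median of germline genes, 3.07, stands for background. Groups follow the labels. All 15781 genes were fitted with limma 3.58.1 (R 4.3.3; lmFit and eBayes, 2-sided), with Benjamini-Hochberg adjustment over all genes and a threshold of 0.05, on the 13 arrays without PR, the 6 PR+/- arrays or the 13 GMP arrays. Adjacent title numbers of the Dnmt3a-/- CMP and GMP arrays, which the labels do not call pairs, had deviations from their group means with r = 0.121, 0.139 and 0.171. Arrays of other numbers were not set against each other, so these values cannot show whether the arrays are paired. Fits with adjacent numbers as a block are given beside the results they change. The code was tested on simulated data. Errors are SE of the fit, and the number of arrays limits the precision.

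The genes described, the lists and the alternatives were chosen with earlier results of these data known. Genes named are those that passed, up to the 10 of largest change in a comparison, or else the 3 of smallest p, with the main subunits and isoform sets of each complex; Atp5e, Cox7b2, Ndufa2, Ndufa3, Ndufs4, Ndufs7, Ndufs8, Ndufv2 and, of the genes that passed in the average, Ndufa13 were named after their values were seen. Alternatives were other gene values, other sets of arrays, array weights, centring, a filter on dim genes, another variance prior, the Y-linked level as a covariate, the annotated symbols and pairing.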

Additional observations from a re-analysis of the deposited data

Results flagged for a closer look

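Among 46 sets of 4 arrays examined (the means of each complex and of all 61 genes, and the named genes in wild-type GMP and in PR+/- Dnmt3a-/- GMP), 1 held an array far from the others: Cox6c in wild-type GMP was at 11.35 on replicate 2 and between 11.05 and 11.09 on the other 3. About 1 in 20 such sets is expected to do so by chance.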

How the results depend on the processing

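For the named genes, 662 alternative values kept direction and side of the threshold, 70 lost it, 23 gained it and 1 reversed: Atp5j, GMP effect minus CMP effect, was -0.075 with the brighter probe sets of each gene. The cause of these changes was not tested. The count over all genes in the same fit follows each count in brackets. For Dnmt3a-/- minus wild type in CMP, the count of passing genes was 0 (202). It became 6 with array weights (1064) and 2 with a trended robust variance prior (235). It was 1 each without dim genes (242), with the Y-linked covariate (63) and without the 5 arrays of high immediate early level (450). It stayed 0 without any 1 array. In GMP the count was 1 (210). It became 0 with the median of probe sets (99), the brighter probe sets (135), the compared groups alone (75) and all 19 arrays (205). It became 10 with array weights (1733). It was 2 with arrays centred again (246), without dim genes (252) or with the Y-linked covariate (48). With the variance prior it was 4 (278), and without the 5 arrays 3 (223). Leaving out 1 array gave 0 to 4 (49 to 262). Averaged over both cell types, 12 (907) became 3 with the Y-linked covariate (139) and 5 to 15 without 1 array (371 to 1031). For GMP minus CMP in wild type, 1 (678) became 0 with the brighter probe sets (541). In Dnmt3a-/- cells, 2 (1590) became 6 with the compared groups alone (1961), 1 with all 19 arrays (1551) and 14 with array weights (3853). The count was 4 with arrays centred again (1736) and 10 without the 5 arrays (2439). With adjacent title numbers as pairs, a block, it was 4 (2060). Without 1 array it was 1 to 3 (968 to 1176). For PR+/- minus wild-type GMP, 0 (484) became 1 with array weights (1045). For PR+/- Dnmt3a-/- minus Dnmt3a-/- GMP, the median was -0.084 without the 5 arrays, and the count was 0 to 1 without 1 array. It was 1 without PR+/- Dnmt3a-/- replicate 3, where 339 of all genes passed, against 195.

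PR+/- and PR+/- Dnmt3a-/- arrays of the same replicate number had correlations of deviations of 0.0774 and 0.0169, which cannot show whether they are paired. With these numbers as a replicate block, the change rests on replicates 1 and 2 alone, since PR+/- GMP has no replicates 3 and 4. Replicates 1 and 2 of PR+/- Dnmt3a-/- are the low pair of high immediate early level. In this fit the median was -0.61 for PR+/- Dnmt3a-/- minus PR+/- GMP. For the difference of the Dnmt3a-/- effects it was -0.81, with 18 genes passing in place of 0 (539 of all genes in place of 5). Without a block and without the 5 arrays, the median of this difference was -0.25.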

Other observations

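From CMP to GMP in Dnmt3a-/- cells, 4 of 52 mitochondrial ribosomal genes rose and none fell: Mrps25 (0.58 ± 0.13), Mrps35 (0.54 ± 0.15), Mrps15 (0.46 ± 0.13) and Mrpl10 (0.46 ± 0.13; limma adjusted p from 0.0098 to 0.0459), a count to be read against the 5.5% of all genes that rose and 4.58% that fell. The median of that list was 0.33, with 51 of 52 genes above 0, where 48.7% of all genes were. Of 9 genes of other electron entry, 3 rose: Sqor, which oxidises sulfide (1.95 ± 0.30), Chdh, the choline dehydrogenase (1.55 ± 0.24), and Gpd2, the mitochondrial glycerol-3-phosphate dehydrogenase (0.48 ± 0.14). Of 24 cell cycle genes, 3 rose in the same comparison (Tk1, Mcm5 and Bub1), with a list median of 0.38; their part in the differences above was not tested.

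Glycolysis genes moved both ways. In wild type, 4 of 16 were lower in GMP, where 2.43% of all genes were, among them Pdk2, a kinase that inhibits pyruvate dehydrogenase (-1.22 ± 0.22, adjusted p = 0.00757), and Pfkm, the muscle phosphofructokinase (-0.98 ± 0.16, adjusted p = 0.00323). In Dnmt3a-/- cells, 3 rose (Hk2, Gpi1 and Aldoa) and 4 fell (Slc2a3, Pdk2, Pfkm and Hk1) in GMP, where 5.5% of all genes rose and 4.58% fell. In the test of the difference between the genotypes none of the 16 passed (limma, smallest adjusted p = 0.483), and at an unadjusted p under 0.05 the difference was above 0 in 2 and below 0 in 2.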
